A study of Mus musculus with 4 samples.

Results

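Interferon-stimulated genes were examined in livers of wild-type (WT) mice and of mice with a liver-specific knockout of Baf60a (Baf60a LKO). The set was a list of 37 gene symbols that spans the transcription factors of interferon signalling, antiviral targets of type I interferon, the guanylate-binding and immunity-related GTPases, and genes of antigen processing. For each gene the probe set with the highest mean level was taken, and 35 of the 37 genes had one, among 18193 genes in all. Isg15 was left out because its probe set is annotated to a second gene as well, and Ifi44 is not analysed here. All mice were of C57BL/6 background and were fed high-fat diet for 10 weeks from 6 weeks of age, and livers were taken after overnight starvation. Smarcd1 encodes BAF60a, which belongs to the chromatin remodelling complex SWI/SNF. The promoter that drives the liver deletion, the sex of the mice and the number of mice in each RNA pool are not given in the sources used here. Total RNA of whole liver was hybridised to Affymetrix Mouse Genome 430 2.0 arrays, 2 per genotype, each with its own RNA pool. Values are on the log2 scale, so a difference of 1 is a 2-fold change.

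Interferons are cytokines that put cells into an antiviral state. Type I interferons act through the receptor IFNAR and the kinases JAK1 and TYK2 to form a complex with STAT2 and IRF9 that binds interferon-stimulated response elements (ISREs). Type II interferon acts through IFNGR and on gamma-activated sites (GAS), and it also induces IRF1. Hepatocytes, liver macrophages and sinusoidal endothelial cells can all respond, and in whole liver RNA fewer cells of a type and less RNA per cell cannot be told apart.

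The 75th percentile over genes was 7.44 in WT replicate 1 and 7.60 to 7.62 in the other 3 arrays. The 25th percentile was 3.59 in WT replicate 1 and 3.39 to 3.41 in the other 3. WT replicate 1 thus stood apart, lower at the bright end and higher at the dim end. Across genes, WT replicate 1 correlated at 0.988 to 0.993 with the other arrays, and those among themselves at 0.993 to 0.997. Genes are not independent replicates, so these describe the arrays only. The targeted gene Smarcd1 read 5.62 and 5.88 in WT and 5.34 and 5.30 in Baf60a LKO. Whether its probe set lies in the deleted part is not known, so this does not check the genotype. The 5 measured hepatocyte markers read 11.8 to 14.2 on all arrays, with a median difference of -0.04, from -0.19 (Hnf4a) to 0.09 (Ttr). All 35 measured members read above the 95th percentile of 27 probe sets for bacterial transcripts, which was 2.63 to 2.86 on the 4 arrays and served as a gauge of background.

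A group of 7 interferon-stimulated genes read at least 0.5 lower in Baf60a LKO livers, with Gbp6 and Ifit1 the lowest, while the transcription factors and antigen processing genes differed by between -0.20 and 0.32. Of the 35 measured members, 24 lay below 0 and 11 above, against 49.9% of all genes below 0, and the median difference was -0.07, against 0.00 over all genes and 0.08 over the brighter 50% of genes. None of the 35 passed an adjusted p of 0.05 by limma with Benjamini-Hochberg adjustment over all 18193 genes, where 0.484% of all genes passed in either direction. At an unadjusted p under 0.05 by limma, 9 members were lower and 0 higher, against 4.42% of all genes lower and 5.76% higher. In 13 members, or 37.1%, both Baf60a LKO values lay below both WT values, against 19.6% of all genes. In 2 members, Stat2 and Tap1, both lay above, against 22.8% of all genes. At least 0.5 lower were 7 members, against 2.18% of all genes, and at least 0.5 higher were 0, against 3.29%. The members were chosen with earlier results of these data known, so these shares describe the list and are not a test. The shares also depend on the WT pools. Without WT replicate 2, 15 members (42.9%) lay lower without overlap, against 40.6% of all genes, and 25.7% of members had an unadjusted p under 0.05 by limma, against 27.6% of all genes. Without WT replicate 1, 24 members (68.6%) lay lower without overlap, against 33.9% of all genes. The median of the members was -0.25 without WT replicate 1 and -0.0099 without WT replicate 2.

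**Figure D1:**
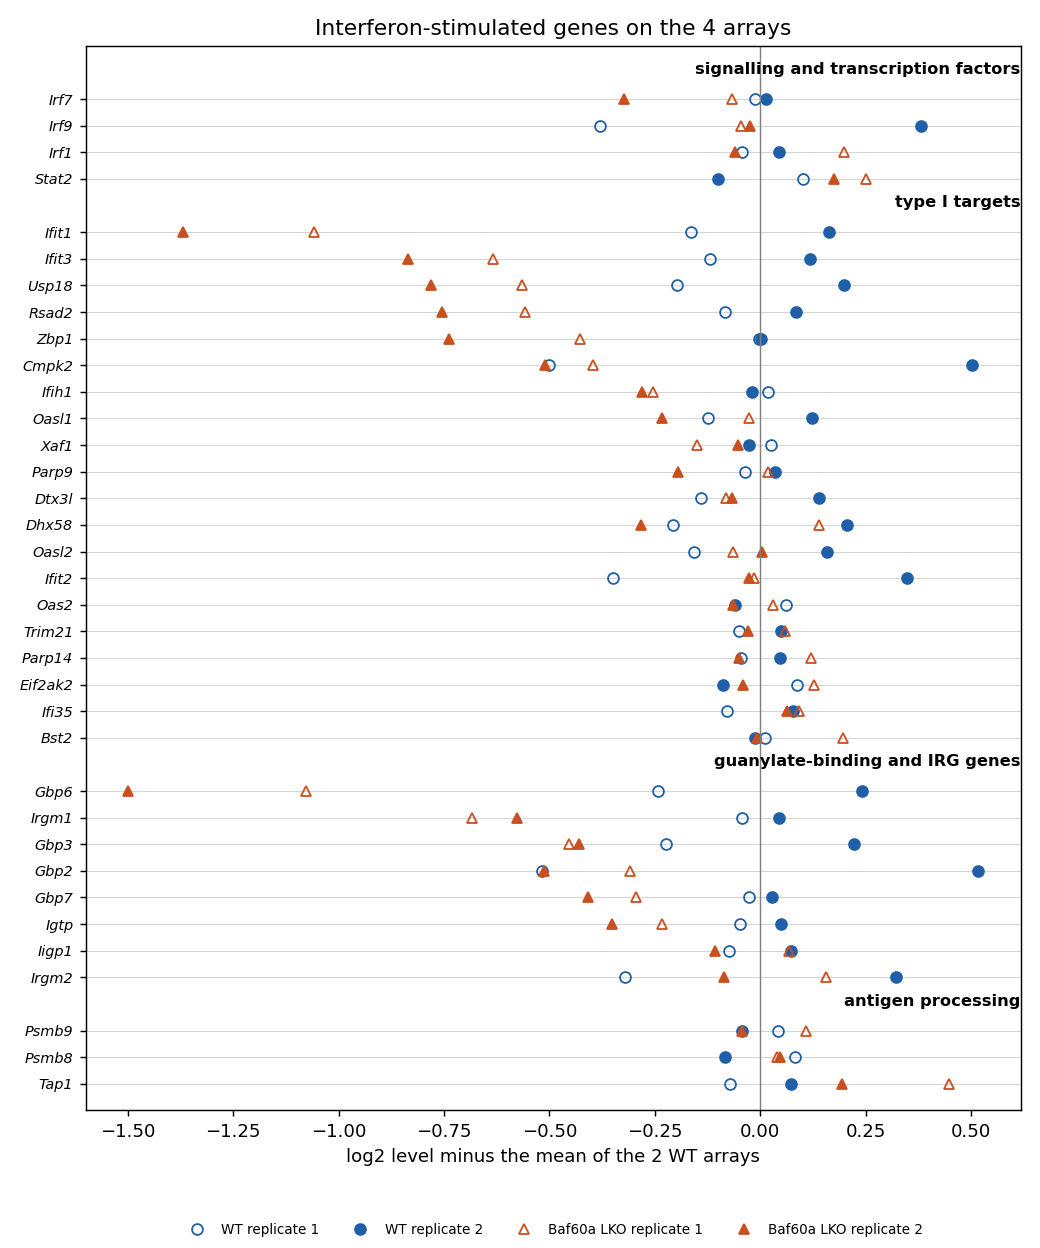
Each row is a measured gene, grouped by role and ordered by its difference; the horizontal axis is the log2 level minus the mean of the 2 WT arrays, with circles for WT and triangles for Baf60a LKO (open for replicate 1, filled for replicate 2). Ifit1 and Gbp6 lie farthest to the left, with both triangles clear of both circles, while the 3 antigen processing genes stay close to or above 0.

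Among the type I targets, Ifit1 differed most. Ifit1, whose protein binds viral RNA that lacks the cap methylation of host RNA, read 8.31 and 8.64 in WT and 7.42 and 7.11 in Baf60a LKO. Both knockout pools lay below both WT pools, a 2.32-fold lower level (log2 difference -1.21 ± 0.18, SE of the fit; limma adjusted p = 0.0941). The value ran from -1.38 to -1.05 over 12 alternative settings, with adjusted p from 0.0186 to 0.711. It passed the threshold when the arrays were normalised again by quantiles (adjusted p = 0.0287), by cyclic loess (0.0186) or by their medians (0.0408), and with robust, trended eBayes (0.0212). Ifit3, a partner of IFIT1, read 7.45 and 7.68 in WT and 6.93 and 6.73 in Baf60a LKO (-0.73 ± 0.15, adjusted p = 0.187 by limma). The groups did not overlap. Ifit2, a family member encoded at the same locus and the direct neighbour of Ifit3, read 5.18 and 5.88 in WT and 5.52 in Baf60a LKO replicate 1 and 5.51 in replicate 2. Here the knockout pools lay between the WT pools (-0.02 ± 0.24), and no difference was detectable at this spread; it was -0.37 without WT replicate 1 and 0.33 without WT replicate 2.

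Rsad2 encodes viperin, an enzyme that makes a chain-terminating nucleotide. It read 9.33 and 9.50 in WT and 8.85 and 8.66 in Baf60a LKO, again without overlap (-0.66 ± 0.14, limma adjusted p = 0.205). Its other probe sets gave -0.55 and -0.49, both without overlap. Cmpk2, a nucleotide kinase gene next to Rsad2, read 4.71 and 5.71 in WT and 4.81 and 4.70 in Baf60a LKO. Only WT replicate 2 stood high in this probe set, and the difference of -0.45 ± 0.32 was -0.95 without WT replicate 1 and 0.05 without WT replicate 2. The second, dimmer probe set of Cmpk2 read 3.34 and 3.49 in WT and 2.92 and 3.14 in Baf60a LKO (-0.38), without overlap.

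Usp18 encodes the protease that removes ISG15 from proteins and that restrains signalling at IFNAR. It read 7.86 and 8.25 in WT and 7.49 and 7.27 in Baf60a LKO (-0.67 ± 0.18, limma adjusted p = 0.321), and the difference was -0.47 without WT replicate 2 and -0.87 without WT replicate 1. The groups did not overlap. Zbp1, a sensor of Z-form nucleic acids that can start necroptosis, read 6.81 on both WT arrays and 6.38 and 6.07 in Baf60a LKO (-0.58 ± 0.15, adjusted p = 0.297 by limma). Its second probe set gave -0.31, also without overlap. The WT pools were alike here, and the spread lay between the knockout pools.

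The other 15 measured type I targets, Cmpk2 and Ifit2 among them, differed by between -0.45 and 0.09, and none had an unadjusted p under 0.05 by limma. Ifih1, the RNA sensor MDA5, read 9.05 and 9.01 in WT and 8.78 and 8.75 in Baf60a LKO. The groups did not overlap, with a difference of -0.27 ± 0.11 (limma adjusted p = 0.506). Xaf1 also did not overlap, at -0.10. The remaining 13 overlapped between genotypes. They include Dhx58, the RNA sensor LGP2 (-0.07, and -0.28 without WT replicate 1), and the oligoadenylate synthetase family members Oasl1 (-0.13), Oasl2 (-0.03) and Oas2 (-0.02). Eif2ak2, the kinase PKR that halts translation (0.04), Bst2, the tetherin that holds virions at the cell surface (0.09), and Trim21, an antibody receptor and ubiquitin ligase (0.02), lay slightly above 0. The second probe set of Trim21 read 5.33 and 5.11 in WT and 4.79 and 4.76 in Baf60a LKO (-0.45), so its probe sets disagree. Over all members, 23 other probe sets were read, of which 9 were lower without overlap, 1 was higher and 13 overlapped. Among all genes, by their brightest probe sets, 19.6% were lower and 22.8% higher without overlap. The 9 include probe sets of Cmpk2, Trim21, Dhx58 (-0.26) and Tap1 (-0.51), whose brightest probe sets were not lower without overlap. Those of Cmpk2 (2.92 to 3.49), Dhx58 (2.95 to 3.36) and Tap1 (2.41 to 3.08) read near the background gauge of 2.63 to 2.86. Ifi35 differed by 0.08. The neighbouring genes Parp14, Dtx3l and Parp9, the last 2 of which encode partners in a ubiquitin ligase complex, differed by 0.03, -0.07 and -0.09. Over all 20 measured type I targets, 15 lay below 0 and 5 above, and the median was -0.08, or -0.07 with Stat2, Irf9 and Irf7 counted among them.

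The guanylate-binding proteins and the immunity-related GTPases (IRG proteins) attack vacuoles that hold bacteria and parasites and are classical targets of interferon gamma. Of the 8 measured, 7 lay below 0, against 49.9% of all genes, and 5 were lower without overlap, against 19.6%. The median was -0.38. Gbp6 read 7.95 and 8.44 in WT and 7.12 and 6.70 in Baf60a LKO. Both knockout pools lay well below WT, a 2.44-fold lower level (log2 difference -1.29 ± 0.22, limma adjusted p = 0.140). Its second probe set gave -1.36, also without overlap. The value ran from -1.53 to -1.05 over 12 alternative settings, with adjusted p from 0.0363 to 0.933, and it passed with robust, trended eBayes (0.0394) or cyclic loess (0.0363). Irgm1, a regulatory IRG protein, read 8.25 and 8.34 in WT and 7.61 and 7.72 in Baf60a LKO (-0.63 ± 0.12, adjusted p = 0.168 by limma). Its groups did not overlap, and the gap between genotypes was larger than the gap within either one. Members of these gene families are similar in sequence, and their probe sets can share targets.

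The guanylate-binding protein genes on chromosome 3 differed less. Gbp7 read 8.30 and 8.36 in WT and 8.04 and 7.92 in Baf60a LKO (-0.35 ± 0.12, limma adjusted p = 0.428). Gbp3 read 6.03 and 6.47 in WT and 5.80 and 5.82 in Baf60a LKO (-0.44 ± 0.17, adjusted p = 0.490 by limma), but -0.22 without WT replicate 2 and -0.66 without WT replicate 1. Neither overlapped. Gbp2 read 6.14 and 7.17 in WT and 6.34 and 6.14 in Baf60a LKO, so the groups overlapped. Its difference of -0.41 ± 0.34 turned to 0.10 without WT replicate 2 and was -0.93 without WT replicate 1.

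Among the other IRG genes, Igtp read 9.10 and 9.20 in WT and 8.91 and 8.80 in Baf60a LKO (-0.29 ± 0.12, limma unadjusted p = 0.0553), without overlap. Irgm2, its direct neighbour, read 7.78 and 8.42 in WT and 8.26 and 8.01 in Baf60a LKO (0.04 ± 0.23), with the knockout pools between the WT pools and a sign that turned to -0.29 without WT replicate 1. Iigp1, an effector GTPase, stood near 12.1 in both genotypes (-0.02 ± 0.13). The type I targets and these 8 GTPase genes thus had medians of -0.08 and -0.38. Leaving out 1 array gave -0.23 to -0.026 for the type I targets and -0.52 to -0.23 for the GTPase genes. These are descriptions of the lists, and the difference between them was not tested.

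**Figure D2:**
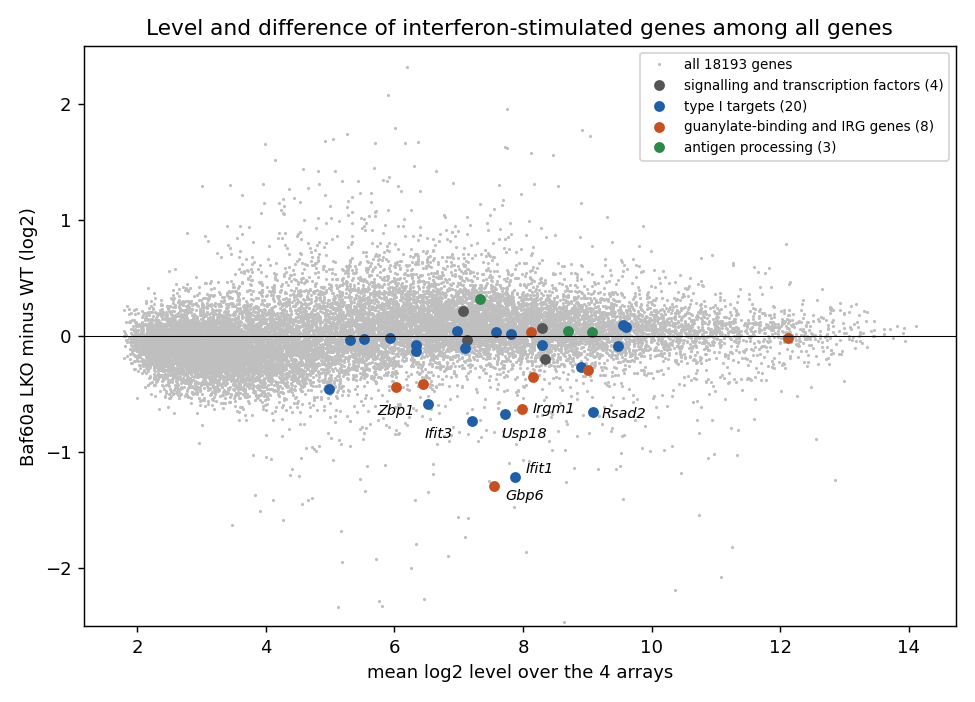
Difference between genotypes (vertical, log2) against the mean log2 level over the 4 arrays (horizontal) for all 18193 genes in grey and the members in colour by role; 28 genes beyond ± 2.5 are not drawn. The 7 labelled genes are those at least 0.5 lower in Baf60a LKO, with Gbp6 at -1.29 and Ifit1 at -1.21; 2.18% of all genes lie at -0.5 or lower.

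Promoter sequences are shown for Rsad2, Irgm1, Ifit1 and Ifit3, whose levels stood lower, together with the neighbours Igtp and Irgm2. These members were picked because they hold the ISRE core in a window just before the start. The windows are the 250 bases before the annotated start in RefSeq, build GRCm38.p6. The ISRE core searched was GAAA, any 2 bases and GAAA, on both strands, with overlapping matches counted separately. The GAS core was TTC, any 3 bases and GAA, which reads the same on both strands; its matches can overlap those of the ISRE core and were counted apart. RefSeq windows were at hand for 29 of the 37 members, and 12 of the 29 held the ISRE core, against 3.46% of all 27025 genes with a window and 2.98% of all 32851 windows. The GAS core was present in 8 of the 29, against 8.13% of all genes and 7.02% of all windows. By role, the ISRE core stood in 6 of 6 guanylate-binding and IRG genes with a window, 5 of 16 type I targets, 1 of 4 signalling genes and 0 of 3 antigen processing genes. Ifit1 and Ifit3 each held it at 2 places, and the RefSeq windows of Ifit2 did not hold these letters. Gbp6, Usp18 and Zbp1 had no window. In the sequences below, written 5′ to 3′ on the gene's strand, capitals mark the ISRE core or its reverse complement, TTTC, any 2 bases and TTTC. The first 4 end at the base just before the start, and only the matched sites are given for Ifit1 and Ifit3, whose windows overlap annotated genes.
Rsad2, chr12:26456453-26456582, minus strand: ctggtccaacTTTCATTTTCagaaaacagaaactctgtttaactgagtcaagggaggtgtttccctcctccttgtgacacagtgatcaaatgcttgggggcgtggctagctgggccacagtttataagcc
Irgm1, chr11:48871421-48871550, minus strand: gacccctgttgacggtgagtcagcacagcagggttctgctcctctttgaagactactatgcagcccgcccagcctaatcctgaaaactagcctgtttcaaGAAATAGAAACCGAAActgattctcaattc
Igtp, chr11:58199426-58199555, plus strand: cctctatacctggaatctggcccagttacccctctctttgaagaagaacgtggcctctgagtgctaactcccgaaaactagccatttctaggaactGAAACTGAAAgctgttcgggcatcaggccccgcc
Irgm2, chr11:58214847-58214976, plus strand: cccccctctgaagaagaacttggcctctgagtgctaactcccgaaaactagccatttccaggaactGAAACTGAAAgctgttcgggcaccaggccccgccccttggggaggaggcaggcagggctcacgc
Ifit1, chr19:34640785-34640813, plus strand: TTTCACTTTCcagtctcagTTTCAGTTTC
Ifit3, chr19:34583373-34583382, plus strand: TTTCACTTTC
Ifit3, chr19:34583407-34583416, plus strand: TTTCAGTTTC

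The Irgm1 stretch holds 2 overlapping matches. Aligned on the ISRE core, the Igtp and Irgm2 stretches were identical at 94 of 100 bases (94.0%), while their levels differed between genotypes by -0.29 for Igtp and 0.04 for Irgm2. The sites printed for Ifit1 and Ifit3 are the same pair of decamers. Bst2 (0.09) and Stat2 (0.21) also held the ISRE core and did not stand lower, so the core was not limited to members that did. Nor did all members that were lower without overlap hold it. The windows of Ifih1 (-0.27), Irf7 (-0.20) and Xaf1 (-0.10) lacked it, while a window of each of Ifit1, Ifit3, Rsad2, Irgm1, Igtp, Gbp3 and Gbp7 held it. A match is a description of these letters and does not show binding.

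The factors that carry the signal differed little. Stat2, which joins IRF9 in the type I complex, read 7.05 and 6.85 in WT and 7.20 and 7.13 in Baf60a LKO, so both knockout pools were higher (0.21 ± 0.13, limma adjusted p = 0.602). The second probe set of Stat2 read 6.35 and 6.08 in WT and 6.23 and 6.24 in Baf60a LKO (0.02), with overlap. Irf9 read 6.76 and 7.52 in WT and 7.10 and 7.12 in Baf60a LKO (-0.04 ± 0.25), with a sign that turned to 0.35 without WT replicate 2. Irf1 read 8.22 and 8.31 in WT and 8.46 and 8.20 in Baf60a LKO (0.07 ± 0.14), and its sign turned to below 0 after quantile or loess normalisation. Irf7, which amplifies the type I response, read 8.42 and 8.45 in WT and 8.37 and 8.11 in Baf60a LKO. Its groups did not overlap (-0.20 ± 0.14, adjusted p = 0.641 by limma), and the difference was -0.07 without Baf60a LKO replicate 2.

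In antigen processing, Psmb8 and Psmb9 encode catalytic subunits of the immunoproteasome. Psmb8 read 8.77 and 8.60 in WT and 8.72 and 8.73 in Baf60a LKO (0.04 ± 0.12), and Psmb9 read 9.09 and 9.01 in WT and 9.16 and 9.01 in Baf60a LKO (0.03 ± 0.12). Both overlapped, and both signs turned to below 0 after quantile or loess normalisation. Tap1, a subunit of the transporter that brings peptides to MHC class I and a direct neighbour of both, read 7.09 and 7.24 in WT and 7.61 and 7.36 in Baf60a LKO. Both knockout pools were higher (0.32 ± 0.14, limma adjusted p = 0.519), but the mean of its probe sets gave -0.07. That mean takes in dim probe sets with mean levels of 2.37, 2.73 and 3.42, beside 7.33 for the brightest. The background gauge was 2.63 to 2.86.

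The wider pathway was read from lists of other genes, which were also chosen with earlier results of these data known. None of their genes passed an adjusted p of 0.05 by limma over all genes, and unadjusted counts are given below. Of 9 measured interferon genes, 9 lay below 0, against 9073 of all 18193 genes, and their median was -0.18. Of those 9073 genes, only 3033 belong to the brighter 50%, so dim genes lay below 0 more often than bright ones. The interferon genes read 2.15 to 4.11, which reached below the 95th percentile of the bacterial probe sets. Of the 9, 2 were lower without overlap, against 19.6% of all genes. Without WT replicate 1 their median was 0.02. The 6 receptor subunits had a median of 0.10. Ifnar1 and Ifnar2, the type I receptor, differed by 0.36 ± 0.16 and -0.10 ± 0.12, and Ifngr1 and Ifngr2, the type II receptor, by 0.05 ± 0.12 and 0.16 ± 0.14. Ifnlr1 differed by -0.14 ± 0.18. Il10rb, a subunit shared by the receptors for interferon lambda and interleukin 10, read 6.29 and 6.79 in WT and 7.26 and 7.24 in Baf60a LKO (0.71 ± 0.19, limma adjusted p = 0.327). It was the 1 receptor gene with an unadjusted p under 0.05 by limma. Without WT replicate 1 the difference was 0.46 for Il10rb and 0.19 for Ifnar1.

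Jak1, Jak2 and Tyk2 differed by 0.13, -0.10 and 0.10, and Stat3 by 0.23. Among negative regulators, Socs1 differed by -0.38 ± 0.17 and Ptpn2 by 0.46 ± 0.24, while Socs3 (-0.02), Ptpn1 (0.01), Ptpn6 (-0.16), Ptpn11 (-0.02) and Pias1 (0.03) lay near 0. Neither these nor the 17 sensors and adaptors upstream of interferon, with a median of 0.00, held a gene at an unadjusted p under 0.05 by limma. The kinases Ikbke and Tbk1, which activate IRF3, differed by -0.35 ± 0.15 and 0.43 ± 0.21. Without WT replicate 1 the difference was 0.13 for Tbk1 and 0.11 for Ptpn2.

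Of 50 further interferon targets listed, 9 had no value here, among them Gbp4, Gbp5, Gbp9, Gbp10, Gbp11, Tgtp1 and Tgtp2. Of the 41 measured, 8 were lower and 0 higher at an unadjusted p under 0.05 by limma, against 4.42% and 5.76% of all genes. The median was 0.00. Of the 41, 20 lay below 0 and 21 above. Without overlap, 12 were lower and 10 higher, against 19.6% and 22.8% of all genes. At least 0.5 lower were 4 and at least 0.5 higher was 1, against 2.18% and 3.29% of all genes. Ifi47, another IRG gene, read 9.08 and 9.04 in WT and 8.56 and 8.05 in Baf60a LKO (-0.76 ± 0.19, limma adjusted p = 0.306). Ifi27l2b differed by -0.66 ± 0.12, Ifi27 by -0.53 ± 0.15 and Mx2, an antiviral dynamin-like GTPase, by -0.46 ± 0.13. The 1 gene at least 0.5 higher was Gbp8, another guanylate-binding protein gene, at 0.61 ± 0.32 without overlap. Without WT replicate 1 the difference of Gbp8 was 0.10. The 11 genes of MHC class I presentation had a median of 0.09 and 0 genes at an unadjusted p under 0.05 by limma. H2-K1, a class I heavy chain, differed by 0.18 ± 0.12 and Psme1, a proteasome activator subunit, by -0.16 ± 0.12.

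**Figure D3:**
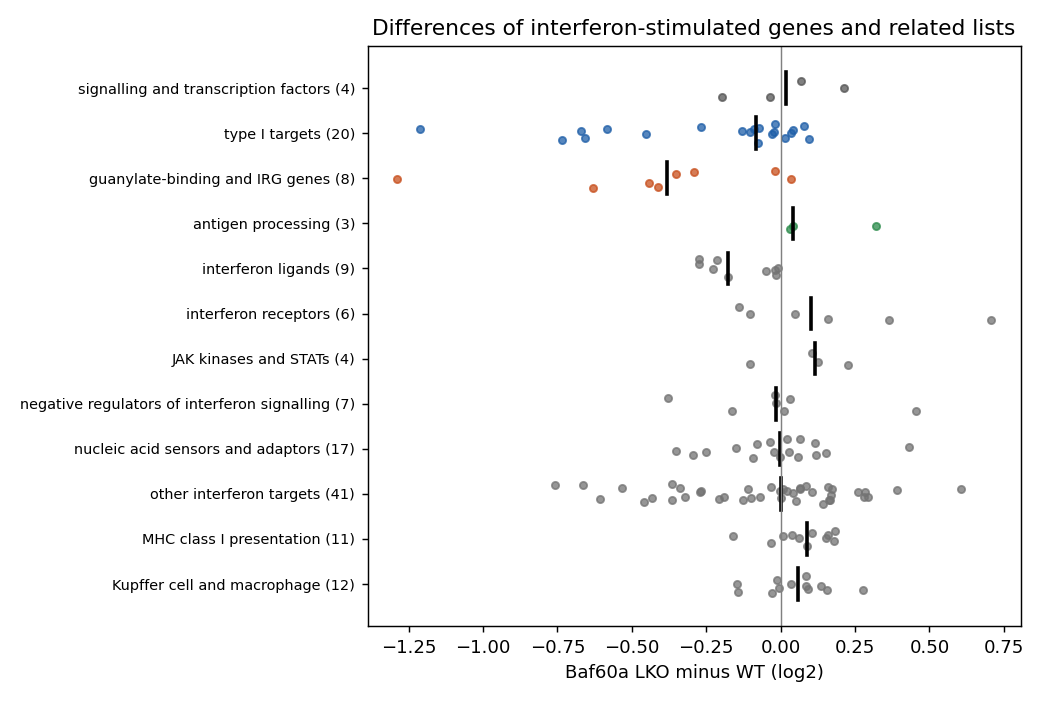
Each point is a gene, placed by its difference between genotypes (log2), with the number of measured genes in brackets and a black bar at the median of each list. The guanylate-binding and IRG genes have their median at -0.38, the type I targets at -0.08, and the receptors and MHC class I genes above 0.

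The pools of a genotype also differed from each other in these genes. WT replicate 2 read higher than WT replicate 1 in 27 of 35 members (77.1%), against 51.3% of all genes and 73.3% of the brighter 50% of genes, to which 33 of the members belong. Baf60a LKO replicate 2 read lower than replicate 1 in 28 of 35 members (80.0%), against 53.7% of all genes and 52.4% of the brighter 50%. The 7 members at least 0.5 lower were chosen for that difference and none overlapped, which fixes its sign with any 1 array left out, so only its size is described. For Gbp6 and Ifit1 the value was -1.05 without WT replicate 2. Without WT replicate 1 it was -1.53 for Gbp6 and -1.38 for Ifit1. Usp18 at -0.47 without WT replicate 2 and Zbp1 at -0.43 without Baf60a LKO replicate 2 came closest to 0.

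**Figure D4:**
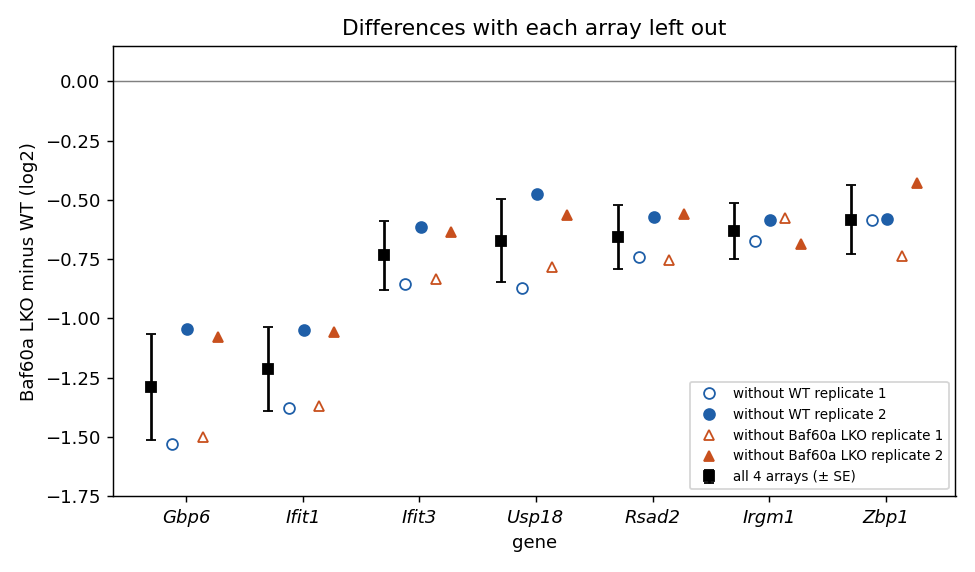
Difference between genotypes (log2) of the 7 genes at least 0.5 lower in Baf60a LKO, with all 4 arrays (black squares, bars for the standard error of the fit) and with each array left out. The values with 1 array left out run from -1.53 to -0.43; that they lie below 0 follows from the choice of genes whose groups do not overlap.

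Markers of liver macrophages varied between the WT pools in the same direction as the members. All 12 Kupffer cell and macrophage markers read higher in WT replicate 2 than in WT replicate 1, against 73.3% of the brighter 50% of genes. In Baf60a LKO, 10 of 12 read lower in replicate 2 than in replicate 1, against 52.4% of the brighter 50%. The summed linear level over all genes was also lowest in WT replicate 1, at 5143090, against 5360170 to 5401570 on the other arrays. The summed linear level of the 12 markers was 7939 for WT replicate 1 and 9390 for replicate 2, and 9110 and 8435 for the Baf60a LKO pools. The same sum over the 35 members was 13478 for WT replicate 1 and 14863 for replicate 2, and 13563 and 12225 for the Baf60a LKO pools. Between genotypes all 12 markers overlapped, as did 10483 of all 18193 genes, and the markers differed by between -0.15 and 0.28 with a median of 0.06. Without WT replicate 1 the median of these markers was -0.14, beside -0.25 for the members, and without WT replicate 2 it was 0.21, beside -0.0099. The 11 T and NK cell markers, the 7 dendritic cell markers and the 7 endothelial markers had medians of 0.08, 0.03 and -0.10. Those of 6 B and plasma cell markers, 6 neutrophil markers, 7 stellate cell markers and 3 red cell markers were -0.17, 0.00, -0.04 and 0.00. The neutrophil markers ran from -0.38 (Cxcr2) to 0.89 (S100a8, and 0.40 without WT replicate 1). The 5 cholangiocyte markers were all higher without overlap, against 22.8% of all genes, with a median of 0.45. Several of these lists were dim. The T and NK cell markers read 2.77 to 5.32, the B and plasma cell markers 3.23 to 5.45 and the cholangiocyte markers 3.22 to 6.02. The background gauge was 2.63 to 2.86. Differences at such levels can be understated, so a median near 0 does not show equal numbers of cells. The part of cell composition in the members' differences was not tested.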

How the data were processed

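Samples were 2 WT and 2 Baf60a LKO liver RNA pools, with genotypes taken from the labels. The deposited values are log2 expression, 1 per probe set and array, by their range. The submitters' processing notes name RMA, affy and limma (no versions given). The quantiles of the 4 arrays are not equal, and how the arrays were normalised together is not stated. Differences of dim genes can be understated by RMA. The arrays hold no read depth, and their number limits the precision. A replicate is a pool, so p-values measure the spread between pools.

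The arrays hold 45101 probe sets, of which 64 are controls and were not tested. Among the remaining 45037, 34945 had 1 gene symbol, 932 several and 9160 none listed. Symbols were updated through the RefSeq table of GRCm38.p6 by Entrez number (34741 matched). Of the 35 measured members, 17 had more than 1 probe set. No filter on level was applied. All genes were fitted with limma 3.58.1 in R 4.3.3 (lmFit, eBayes), 2-sided, with Benjamini-Hochberg adjustment over 18193 genes; errors are standard errors of this fit. The fit was run on simulated data as a check of the code, which does not show its power at the size of the members' differences. Figures were drawn with matplotlib 3.10.9.

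The members and gene lists were chosen with earlier results of these data known. Values on every array are given for members that differ by at least 0.5 or have an unadjusted p under 0.05, and for Irf1, Irf7, Irf9, Stat2, Gbp2, Iigp1, Psmb8, Psmb9 and Tap1 (Isg15 was also named by this rule but has no value). Ifit2, Cmpk2, Ifih1, Igtp and Irgm2 were added to these after their values were seen, as neighbours or non-overlapping members, as were the differences of the remaining members and the values of single marker genes. Receptors, kinases, STATs and negative regulators are all given, and at most 4 genes of other lists by smallest p. Gbp8 was added to these after its values were seen. Alternatives were 3 normalisations, the brighter 50% of genes, averaged probe sets, leaving out _x_at and _s_at probe sets, robust, trended eBayes, leaving out each array, and a replicate block.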

Additional observations from a re-analysis of the deposited data

How the results depend on the processing

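Over all genes, 88 passed by limma, 142 after cyclic loess, 154 with array medians subtracted (91 higher and 63 lower, against 43 and 45), 216 with robust, trended eBayes and 19 with the replicate block, and 0 to 17 with 1 array left out, with the 0 reached when WT replicate 1 was omitted (unadjusted p under 0.05 in 1630). Of the members, 0 passed, but 1 after quantile normalisation and 1 with array medians subtracted (Ifit1 in both), 2 after cyclic loess and 2 with robust, trended eBayes (Ifit1 and Gbp6 in both; the eBayes setting was applied to single members after seeing the data). With the replicate block 0 members passed (9 at an unadjusted p under 0.05), and same-numbered arrays deviated together at 0.14 over genes, which with 2 pairs does not show pairing. Members lower without overlap numbered 13. Groups that do not overlap stay so with any 1 array left out, so this count could not fall under 13 there. It was 24 when WT replicate 1 was omitted (68.6%, against 33.9% of all genes) and 15 for WT replicate 2 (42.9% against 40.6%). For Baf60a LKO replicate 1 it was 22 (62.9% against 34.0%), and for Baf60a LKO replicate 2 it was 13 (37.1% against 29.0%). The median of the members was -0.07, and -0.25 to -0.0099 with 1 array left out, and that of the type I targets -0.23 to -0.026; both lay farthest below 0 without WT replicate 1. Signs turned 16 times among the 18 members given on every array by rule. With 1 array left out, Irf9 ran from -0.42 to 0.35 and Gbp2 from -0.93 to 0.10, both above 0 without WT replicate 2. Irf1 ran from -0.059 (without Baf60a LKO replicate 1) to 0.20, and Iigp1 from -0.11 to 0.068, above 0 without WT replicate 2 (0.054) or Baf60a LKO replicate 2. Psmb8 ran from -0.041 (without WT replicate 2) to 0.13, and Psmb9 from -0.043 (without Baf60a LKO replicate 1; -0.0099 without WT replicate 2) to 0.11. Quantile normalisation gave -0.0022 for Irf1, -0.013 for Psmb8 and -0.021 for Psmb9, and cyclic loess gave -0.017, -0.038 and -0.043 for the same genes. Iigp1 was at 0.013 with array medians subtracted and Tap1 at -0.074 with averaged probe sets, the dim ones included. The causes were not tested.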
